A study of Mus musculus with 29 samples.

Results

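Genes of the axonal cytoskeleton and general markers of retinal ganglion cells (RGCs) were followed through 29 single cells. They were chosen by name and comprise the neurofilament genes *Nefl*, *Nefm*, *Nefh* and *Ina*, the axon growth genes *Gap43* and *Stmn2*, the neuronal tubulin *Tubb3*, and *Thy1*, *Sncg* and *Uchl1*, which are widely used as RGC markers. All 10 genes had a value, and together they were read by 14 of the 45101 probe sets of the array, among 18194 genes. *Nefl* and *Stmn2* had 2 probe sets each, *Ina* had 3, and the other 7 genes had 1 each.

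The RGCs came from retinas of adult mice labelled C57BL/6 (C57BL/6J in the study's methods) with no transgene or treatment named. Each cell was assigned to a subtype from its spikes to projected light stimuli in a cell-attached recording, its soma was drawn into a glass pipette, and its cDNA was amplified by 35 cycles of PCR and hybridized to an array of its own. Direction selectivity (DS) was found in 8 cells, of which 4 responded to light onset (ON DS) and 4 to both onset and offset (ON-OFF DS). A further 2 cells were orientation-selective (OS), namely an ON vOS and an ON hOS cell. Alpha cells, which have large somata and dendritic fields, numbered 9, with 2 ON alpha cells, 4 OFF alpha cells of sustained response (OFF S alpha) and 3 of transient response (OFF T alpha). The remaining 10 cells, called other subtypes below, included 2 cells suppressed by contrast (SbC). The rest were single cells, namely a local edge detector (LED), a PixON, a J-RGC, an ON S non-alpha and an OFF high speed selective cell, and the EyeWire cells 4i, 6sn and 6sw. A number after the subtype, from 1 to 29, is the cell's number in the sample labels. No source used here names the animal of a cell, so cells of a subtype were not treated as independent replicates. No test was made between groups, the spread is that between cells, and the precision is limited by how few arrays there are.

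RGCs are the output neurons of the retina, and their axons form the optic nerve. Neurofilaments are the intermediate filaments of such long axons. They are built from the light, medium and heavy subunits together with alpha-internexin, the product of *Ina*, and a high neurofilament content is a known feature of large-caliber axons and of alpha RGCs. GAP-43 is a membrane protein of growth cones, and stathmin 2 binds tubulin and regulates microtubules in growing and regenerating axons. Because the soma was aspirated, the values describe transcripts of the cell body and not of the axon.

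The 2 markers with the closest relation across the 29 cells, as described further on, were *Sncg* and *Uchl1*, so the 250 bases before the start of each are shown, on the strand of the gene (RefSeq, GRCm38.p6). They lie at chr5:66675871-66676120 on the plus strand for *Uchl1* and at chr14:34374670-34374919 on the minus strand for *Sncg*. Capitals mark matches on either strand to any of 4 short motifs, and no matches overlapped here. The motifs were the TATA box, searched as TATAA, the CAAT box, searched as CCAAT, the GC box, searched as GGGCGG, and the E-box, searched as CANNTG.

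Uchl1 promoter: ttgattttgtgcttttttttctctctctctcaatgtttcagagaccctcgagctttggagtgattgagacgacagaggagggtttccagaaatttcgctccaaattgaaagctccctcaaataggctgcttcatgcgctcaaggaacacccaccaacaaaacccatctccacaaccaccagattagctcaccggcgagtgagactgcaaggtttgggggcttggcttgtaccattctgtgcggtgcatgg

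Sncg promoter: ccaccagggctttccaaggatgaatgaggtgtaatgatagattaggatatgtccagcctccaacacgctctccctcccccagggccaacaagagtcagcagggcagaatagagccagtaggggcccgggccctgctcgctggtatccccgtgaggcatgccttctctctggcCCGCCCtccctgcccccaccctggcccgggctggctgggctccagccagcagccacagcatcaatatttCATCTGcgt

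The *Uchl1* sequence held none of these 4 motifs, and the *Sncg* sequence held 1 GC box, on the opposite strand, and 1 E-box. For comparison, among 32851 mouse promoters of the same length 22.8% held the TATA box, 33.8% the CAAT box, 32.7% the GC box and 66.2% the E-box. The G+C content was 48.8% before *Uchl1* and 61.6% before *Sncg*. A match is only a description of the letters.

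MAS5 signals are linear intensities, and every array had the same 2% trimmed mean of 1500. A gene was called detected at a signal of at least 3000, which is 2 times that mean, and signals below a floor of 375 were raised to it before the log2 was taken (8.55). The number of detected genes, which stands for the depth of a library, ran from 1182 in SbC 26 to 4201 in EyeWire 6sw 21. Its median was 2908 over all cells, 3015 in the 9 alpha and 2968.5 in the 8 DS cells. The RGC label was checked with 5 other marker genes that had a value. *Slc17a6*, which encodes the transporter that loads synaptic vesicles with glutamate, was found in 23 cells, *Nrn1* in 16, *Rbpms* in 15, *Pou4f1* in 11 and *Isl2* in 0. Transcripts of rods were also on the arrays: 18 cells had at least 5 of the 10 rod genes that could be read, and 6 cells had none. The median number was 6 in alpha and 1.5 in DS cells, and the summed rod signal ran from 3230 to 3366850 in alpha and from 365 to 1213020 in DS cells, so these ranges overlapped. Of other cell types, *Chat*, *Th*, *Tfap2a* and *Tfap2b* of amacrine cells and *Lhx1*, *Onecut1* and *Prox1* of horizontal cells were detected in 0 cells. The same held for *Cx3cr1* and *P2ry12* of microglia and *Cldn5*, *Pecam1* and *Cdh5* of endothelium. It also held for *Trpm1* and *Vsx1* of bipolar cells, *Apoe* and *Sox9* of Müller glia and *Thrb* of cones. Of 10 Müller glia genes the median cell had 3, and *Clu* (27 cells) and *Dkk3* (21 cells) were the most frequent. The most frequent rod genes were *Nrl* and *Rom1* (20 cells each) and the most frequent cone genes *Pde6h* (12) and *Opn1mw* (11). Of the other lists these were *Calb1* of horizontal cells (14), *Slc6a9* (8), *Gad1* and *Slc32a1* (4 each) of amacrine cells, *Pcp2* (6) and *Prkca* (5) of bipolar cells, *C1qb* (6), *Aif1* and *Csf1r* (2 each) of microglia, *S100b* (6) and *Gfap* (3) of astrocytes and *Flt1* of endothelium (1).

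The markers were present in nearly every cell, and *Nefh* and *Gap43* were the exceptions. *Sncg* and *Uchl1* were detected in 29 of 29 cells (exact 95% Clopper-Pearson interval of the share, 88.1% to 100%). *Nefl* followed with 28 cells, then *Stmn2*, *Tubb3* and *Thy1* with 27 each, *Nefm* with 26 and *Ina* with 25. *Nefh* and *Gap43* were each detected in 18 cells (62.1%, interval 42.3% to 79.3%). These intervals cover counting error only.

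All 10 genes were detected together in 9 cells, 9 of them in 12 cells and 8 in 5 cells, so 26 of 29 cells had at least 8. The other 3 cells were SbC 26 and ON S non-alpha 28 with 6 genes each and EyeWire 6sw 21 with 4. SbC 26 lacked *Nefm*, *Nefh*, *Gap43* and *Thy1*, and ON S non-alpha 28 lacked *Nefm*, *Nefh*, *Ina* and *Gap43*. EyeWire 6sw 21 lacked the 4 neurofilament genes, *Gap43* and *Tubb3*, although it had the most detected genes of all arrays. Each of these 3 arrays had 9 rod genes, and of the 9 valued genes on the wider RGC list SbC 26 had 0 and the other 2 cells had 1 each. ON DS 1 and LED 29 also had 9 rod genes, and all 10 members were detected in them. EyeWire 6sw 21 and ON S non-alpha 28 had the most cone genes (6 and 5) and Müller glia genes (6 and 7) of all cells. SbC 26 had 4 cone and 0 Müller glia genes. The part of transcripts of rods or other cell types in these low counts was not tested.

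**Figure D1:**
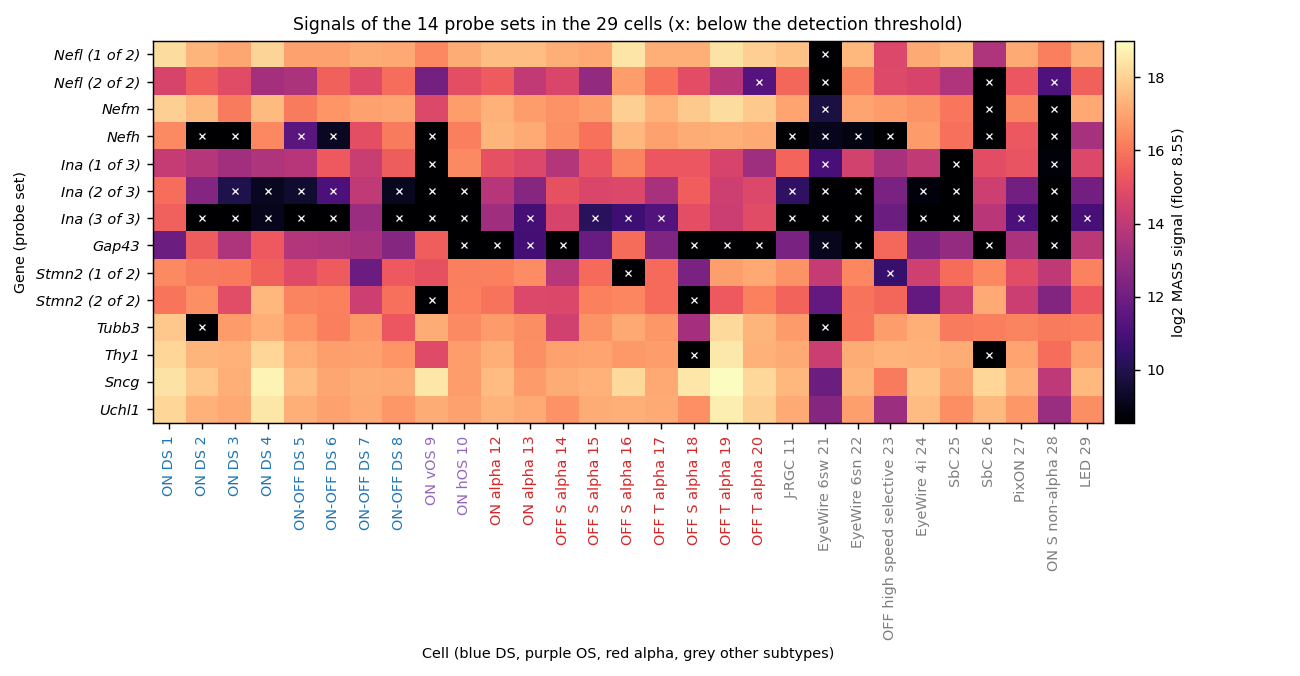
Log2 MAS5 signal (color, floor 8.55) of the 14 probe sets in the 29 cells, with cells on the x axis ordered by class and colored by it, and crosses marking signals below the detection threshold. Crosses concentrate in Nefh, Gap43 and the other 2 probe sets of Ina, and in the columns of EyeWire 6sw 21, SbC 26 and ON S non-alpha 28.

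Differences between classes were read as differences of the median floored log2 signal, and a difference was called at 1 or more, a 2-fold change. Between alpha and DS cells 3 of the 10 genes were called: *Nefh* (3.93) and *Ina* (1.10) were higher in alpha cells, and *Gap43* (-5.04) was lower. Over the 7113 genes detected in at least 3 cells, 18.9% were called higher and 15.2% lower in the same comparison. The other 7 differences lay between -0.32 (*Thy1*) and 0.45 (*Nefl*), and the median over the 10 genes was 0.20 against 0 over all 7113. With 2 called higher and 1 lower, the shares of called members were near those of all genes.

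**Figure D2:**
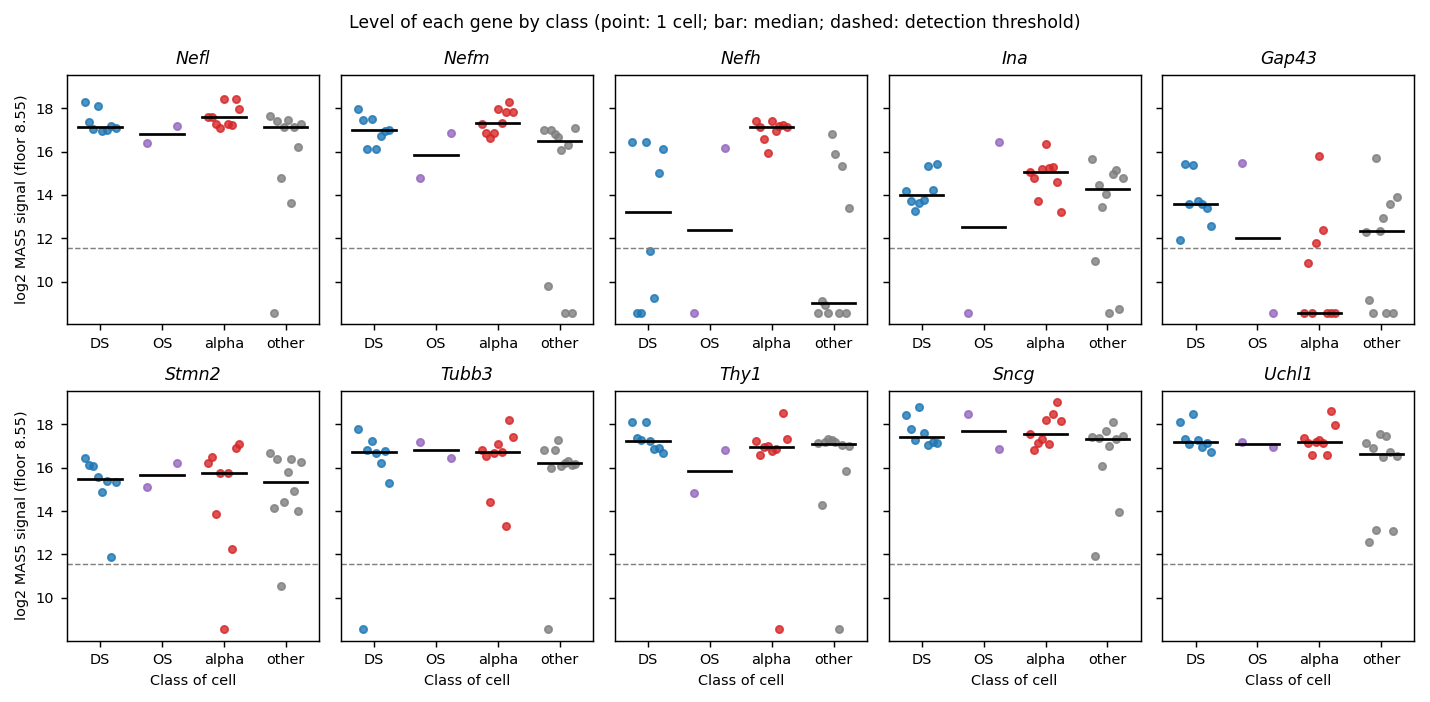
Log2 MAS5 signal (y axis, floor 8.55) of each of the 10 genes in DS (n = 8), OS (n = 2), alpha (n = 9) and other (n = 10) cells, 1 point per cell, with a bar at the median and a dashed line at the detection threshold. All 9 alpha cells lie above the threshold for Nefh and 6 of them below it for Gap43, whereas all 8 DS cells lie above it for Gap43.

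*Nefl*, which encodes the light subunit, was the most even of the neurofilament genes. Its signal ran from 141286 to 354776 in alpha cells, with a median of 196710, and from 128080 to 318235 in DS cells, with a median of 144273. These ranges overlapped almost wholly, and the difference of 0.45 was below the spread within each class (SD 0.51 in both). In 26 of 29 cells the signal was 75351 or more. The exceptions were OFF high speed selective 23 with 28194, SbC 26 with 12480 and EyeWire 6sw 21 with 138. The second *Nefl* probe set was detected in 25 cells, all of them cells with the first, and its alpha minus DS difference was -0.17.

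*Nefm*, which encodes the medium subunit, was detected in all alpha and DS cells. It ran from 100427 to 324001 in alpha cells (median 161678) and from 71787 to 255808 in DS cells (median 128901). The medians differed by 0.33, within an SD of 0.58 in alpha and 0.65 in DS cells, and the sign turned with quantile normalization (-0.056). The 3 cells without it had 897 in EyeWire 6sw 21, 207 in SbC 26 and 20 in ON S non-alpha 28, so *Nefm* was either high or far below the threshold.

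*Nefh*, which encodes the heavy subunit, separated the alpha cells from most others. Its lowest, median and highest signals in the 9 alpha cells were 62278, 145101 and 175659. In the 8 DS cells they were 11, 18033 and 90368. Every alpha cell was above the threshold with little spread (SD 0.47), whereas the DS cells fell into 4 cells with and 4 without a detected signal (SD 3.65).

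Of the ON DS cells it was detected in cell 1 (90368) and cell 4 (88064), and of the ON-OFF DS cells in cell 7 (33344) and cell 8 (70959), so both DS subtypes held cells of either kind. In the remaining DS cells, numbered 2, 3, 5 and 6, it was 10.9, 53.7, 2722 and 607. An alpha cell had the higher signal in 69 of 72 pairs of an alpha and a DS cell, and the difference of 3.93 was at the 97.4 percentile of all ranked genes. It was larger than the SD of either class. The DS median falls between the cells with and without a signal, so its exact value turns on single cells: the difference was 2.12 without any 1 of DS cells 2, 3, 5 and 6 and 5.74 without any 1 of the other 4 DS cells. When cells with 5 or more rod genes were left out it was 5.74, over 3 alpha and 5 DS cells.

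Within the alpha class the 3 subtypes did not separate. *Nefh* was 172399 and 144041 in the ON alpha cells. In OFF T alpha cells 17, 19 and 20 it was 128090, 155621 and 145101. In OFF S alpha cells 14, 15, 16 and 18 it was 98354, 62278, 175659 and 150666, and this widest range covered all the others. Outside the alpha and DS classes *Nefh* was found in ON hOS 10 (74581), EyeWire 4i 24 (114122), SbC 25 (60736), PixON 27 (40823) and LED 29 (10846), and in the remaining 7 cells it was at most 551.

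*Ina*, which encodes alpha-internexin, was read by 3 probe sets, and these gave different pictures of the DS cells. With the first, which was the one used in all other comparisons, *Ina* was detected in all alpha cells (9389 to 83003, median 34437) and in all DS cells (9853 to 44186, median 16236). The ranges overlapped, and alpha cells were higher in 46 of 72 pairs. The difference of 1.10 was just above the SDs of 0.92 and 0.80, and it lay below 1, between 0.90 and 0.998, when any 1 of 9 cells was left out and was 0.63 as a difference of means.

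The second *Ina* probe set was detected in 9 of 9 alpha and 3 of 8 DS cells, with a difference of 4.18, and the third in 5 of 9 alpha and 2 of 8 DS cells, with a difference of 4.69. These 2 probe sets followed each other across the 29 cells (Pearson r = 0.87), but had r = 0.46 and 0.27 with the first. All 3 were therefore higher in alpha cells, by amounts that differed between probe sets. The 4 cells below the threshold with the first probe set were EyeWire 6sw 21 (1977), ON S non-alpha 28 (427), SbC 25 (126) and ON vOS 9 (25), while ON hOS 10 had the highest signal of all cells (89928).

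*Gap43*, the gene of the growth cone protein, ran the other way. It was detected in 8 of 8 DS cells, with signals from 3897 to 44100 and a median of 12319. In alpha cells it was detected in 3 of 9 (33.3%, interval 7.49% to 70.1%), with a median of 201. The alpha cells with a signal were OFF S alpha 15 (3558), OFF S alpha 16 (56927) and OFF T alpha 17 (5387). OFF S alpha 16 thus had the highest *Gap43* signal of all 29 cells. The ranges of the classes overlapped because of it and of OFF T alpha 17, which lay above ON DS 1 (3897).

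Since the alpha median lay at the floor, the size of the *Gap43* difference depended on it: -5.04 with the floor of 375, -3.04 with a floor of 1500 and -5.94 with none. An alpha cell was higher in 9 of 72 pairs. The value was -5.17 when cells with 5 or more rod genes were left out and between -5.05 and -3.88 when 1 cell was left out. Among DS cells *Gap43* was 3897, 44100, 12407 and 42118 in ON DS 1 to 4 and 13510, 12231, 10886 and 6082 in ON-OFF DS 5 to 8. The ON-OFF DS cells lay inside the range of the ON DS cells.

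*Nefh* and *Gap43* were detected together in 11 of the 29 cells, *Nefh* alone in 7, *Gap43* alone in 7 and neither in 4. Of the alpha cells, 6 had *Nefh* alone and 3 had both; of the DS cells, 4 had *Gap43* alone and 4 had both. No DS cell had *Nefh* alone and no alpha cell *Gap43* alone. In the single OS cells the genes were split, with *Gap43* alone in ON vOS 9 (45165) and *Nefh* alone in ON hOS 10 (74581). Over the 29 cells the correlation of their log2 signals was weak (Pearson r = -0.18).

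**Figure D3:**
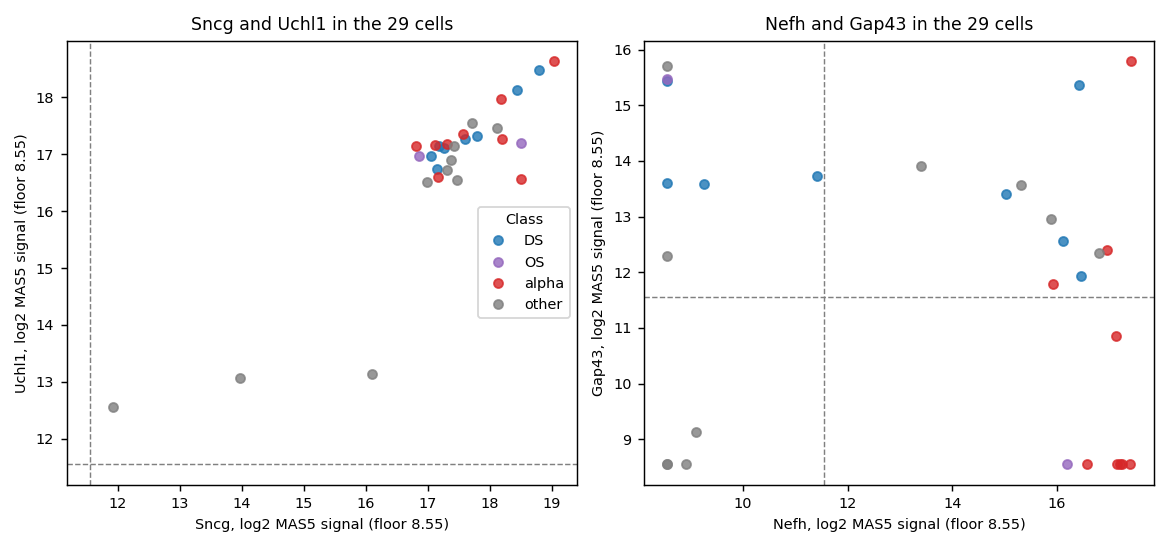
Log2 MAS5 signals (floor 8.55) of Uchl1 against Sncg (left) and of Gap43 against Nefh (right), 1 point per cell (n = 29), colored by class, with dashed lines at the detection threshold. Uchl1 and Sncg follow each other (r = 0.88), with 3 cells of other subtypes at the low end. All 9 alpha cells and 4 DS cells lie right of the Nefh threshold, and all 8 DS cells and 3 alpha cells lie above that of Gap43.

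*Stmn2*, the gene of stathmin 2, did not differ between alpha and DS cells (difference 0.27, SD 2.80 and 1.45) by more than their spread. The contrast lay inside the alpha class. OFF T alpha cells 17, 19 and 20 had 55514, 121734 and 140196, and OFF S alpha cells 14, 15, 16 and 18 had 14909, 54782, 287 and 4825. The groups did not overlap, although OFF T alpha 17 and OFF S alpha 15 differed little. The difference of medians was 3.84, larger than the SD of either group (0.72 and 3.05), and stayed between 3.03 and 4.66 when 1 cell was left out.

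The second *Stmn2* probe set did not show this. It gave 55374, 41676 and 76778 in OFF T alpha 17, 19 and 20 and 27215, 78009, 83921 and 10.2 in OFF S alpha 14, 15, 16 and 18, and the difference was 0.27. OFF S alpha 16 was thus among the brightest cells with this probe set and below the threshold with the first. Across the 29 cells the pair had r = 0.26. Both were detected in 25 cells and at least 1 of them in all 29.

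For OFF T against OFF S alpha cells, 3 of the 10 genes were called higher and 1 lower. Over all ranked genes 34.4% were called higher and 15.9% lower. Ranges that did not overlap, as for *Stmn2*, were found in the higher direction in 3.91% of all ranked genes. *Tubb3* was called with 1.85 and *Uchl1* with 1.08, and *Gap43* was called lower with -1.62. All 4 OFF S alpha cells had at least 5 rod genes and 1 of the 3 OFF T alpha cells did, and the part of this in the differences was not tested. The *Gap43* value was within the spread (SD 2.22 and 3.44) and turned to 0.30 without OFF T alpha 19 or OFF T alpha 20. That of *Tubb3* was 0.74 without OFF S alpha 14 or OFF S alpha 18, and that of *Uchl1* was 0.67 without OFF T alpha 19 and 0.79 without OFF S alpha 14 or OFF S alpha 18.

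*Tubb3*, which encodes a beta-tubulin of neurons, was 109823, 300561 and 173266 in OFF T alpha 17, 19 and 20. It was 22135, 103922, 140645 and 10292 in OFF S alpha 14, 15, 16 and 18. The low OFF S median came from cells 14 and 18. Over the classes the medians were 109823 in alpha and 108753 in DS cells, a difference of 0.015. Its 2 cells below the threshold were ON DS 2 (53.6) and EyeWire 6sw 21 (15.2), and in the other 27 cells it was at least 10292.

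Between ON-OFF DS and ON DS cells, *Ina* was the 1 gene called higher (1.13) and 0 of the 10 were called lower, where 33.8% and 15.3% of all ranked genes were called. *Ina* was 14052, 41898, 19479 and 44186 in ON-OFF DS 5 to 8 and 18419, 13687, 9853 and 12462 in ON DS 1 to 4, and the ON-OFF DS cell was higher in 15 of 16 pairs. It fell to 0.58 without ON-OFF DS 6 or ON-OFF DS 8. The other 2 *Ina* probe sets gave -0.96 and -0.28, so the direction was not shared by the probe sets.

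With the probe sets used throughout, the ON-OFF DS median was the lower one in 8 of the 10 genes, by 0.59 to 0.99, and these values were close to the limit for a call. They lay between the 15.5 and 20.4 percentile of all ranked genes. The second probe set of *Nefl* went the other way (0.46, against -0.67 with the first), and the mean of both gave -0.049. Leaving out 1 ON DS cell raised the number called lower to 7 (without ON DS 3) or 5 (without ON DS 2). The share of all ranked genes called lower was not computed for these settings, so the counts cannot be set against it. Quantile normalization turned the sign for *Nefl*, *Nefm*, *Tubb3*, *Thy1* and *Uchl1* and left *Gap43*, *Stmn2* and *Sncg* lower, with -1.03, -0.75 and -0.068. For *Stmn2* and *Thy1* the deposited signals of the groups did not overlap, as was the case in the lower direction for 0.717% of all ranked genes. *Stmn2* was 89398, 71171, 68606 and 48683 in ON DS 1 to 4 and 29895, 43340, 3715 and 41955 in ON-OFF DS 5 to 8, a difference of -0.98. The second *Stmn2* probe set gave -0.22, and with it the groups overlapped, the ON-OFF DS cell being higher in 5 of 16 pairs. *Thy1* was 286880, 172256, 160839 and 282762 against 152237, 121216, 124228 and 105244, a difference of -0.85, which was 0.029 after quantile normalization.

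*Thy1*, the gene of a glycoprotein on the surface of RGCs, was present at similar levels in nearly all cells. Its signal ran from 105244 to 286880 in DS cells (median 156538). In alpha cells it ran from 262 to 374157 (median 125365). The lowest alpha value, in OFF S alpha 18, stood far from the others, of which the next was 98591. SbC 26, with 9.05, was the other cell below the threshold, and these 2 cells had 9 rod genes each and 0 of the 9 genes of the wider RGC list. ON vOS 9 had the same counts on both lists, and *Thy1* was detected in it (29628). The medians differed by -0.32.

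*Sncg*, the gene of gamma-synuclein, and *Uchl1*, the gene of a neuronal ubiquitin hydrolase, differed little between the classes. *Sncg* ran from 114080 to 535920 in alpha cells (median 193188) and from 135071 to 452385 in DS cells (median 177625). *Uchl1* ran from 97081 to 408023 (median 149021) and from 108984 to 365935 (median 151246). The differences, 0.13 and -0.020, were below every SD (0.60 to 0.75), and both turned sign with quantile normalization (-0.016 and 0.0040).

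Both genes were lowest in the same 3 cells, all of other subtypes. EyeWire 6sw 21 had 3892 for *Sncg* and 6024 for *Uchl1*, ON S non-alpha 28 had 15991 and 8603, and OFF high speed selective 23 had 70372 and 8972. In all other cells *Sncg* was at least 114080 and *Uchl1* at least 93779. OFF T alpha 19 had the highest signal of all cells for both.

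Ordered by their medians with the probe sets used throughout, the 16 subtypes gave no common order for the 10 genes. OFF T alpha cells came first for 5 genes (*Nefl*, *Nefm*, *Stmn2*, *Tubb3* and *Uchl1*) and ON alpha cells for *Nefh*, and in each of these 6 cases the range reached that of the next subtype. ON DS cells came first for *Thy1*, also with a range that reached the next. *Ina* was highest in ON hOS 10, *Gap43* in OFF high speed selective 23 (53183) and *Sncg* in ON vOS 9 (371680), which are single cells with no spread of their own. At the other end, EyeWire 6sw 21 came last for 5 genes (*Nefl*, *Tubb3*, *Thy1*, *Sncg* and *Uchl1*), ON S non-alpha 28 for *Nefm*, ON vOS 9 for *Ina* and OFF high speed selective 23 for *Stmn2*. With the second *Stmn2* probe set OFF high speed selective 23 was not last (52043, against 227 in ON vOS 9). For *Nefh* and for *Gap43* the medians of the last 4 subtypes all lay below the floor of 375, so their order has no meaning. OFF T alpha was among these for *Gap43*, although its highest signal was 5387.

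The members were related to each other in part. Over the 45 pairs of genes the median Pearson r of log2 signals across the 29 cells was 0.31 (median Spearman rho 0.33), 9 pairs (20%) had r of at least 0.5, and 5 pairs had r below 0. By comparison, the share of all ranked genes with r of at least 0.5 was highest for *Thy1* (2.12%), *Nefm* (1.53%), *Nefh* (1.17%) and *Nefl* (1.08%). It was lower for *Uchl1* (0.787%), *Ina* (0.661%), *Stmn2* (0.647%), *Tubb3* (0.464%), *Sncg* (0.352%) and *Gap43* (0.225%). All points share the array of their cell and its scaling, and the values are a description of these cells.

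*Sncg* and *Uchl1*, the genes of the promoters above, had the highest value (r = 0.88, rho = 0.74). It was 0.71 without EyeWire 6sw 21 and ON S non-alpha 28, the 2 cells farthest from the median *Sncg* signal. Within the alpha and DS classes it was 0.72. *Nefl* and *Nefm* had r = 0.74 (rho = 0.79) and 0.76 within the classes. Without EyeWire 6sw 21 and SbC 26, the 2 cells farthest from the median *Nefl* signal, they had 0.50. These genes lie side by side on chromosome 14, with only *Gm19216* annotated between them.

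Of the other 7 pairs with r of at least 0.5, 3 changed by more than 1.5 times when 1 cell was left out. *Nefl* and *Sncg* had r = 0.75, but 0.35 without EyeWire 6sw 21, and *Nefl* and *Tubb3* had 0.57, but 0.076 without this cell. *Nefm* and *Thy1* had 0.51, but 0.24 without SbC 26 and -0.030 within the classes. *Uchl1* with *Nefl* had 0.71, and 0.52 or more when any 1 cell was left out. *Nefm* and *Nefh* had r = 0.54 (rho = 0.61), and at least 0.497 when any 1 cell was left out. The lowest value was that of *Gap43* and *Stmn2*, the pair of axon growth genes (r = -0.32, rho = -0.36), and it was -0.19 without OFF S alpha 16. This cell and OFF high speed selective 23 had the highest *Gap43* signals. Their *Stmn2* signals were 287 and 1503 with the first probe set, but 83921 and 52043 with the second. Within the alpha and DS classes the median over the 45 pairs was 0.069.

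**Figure D4:**
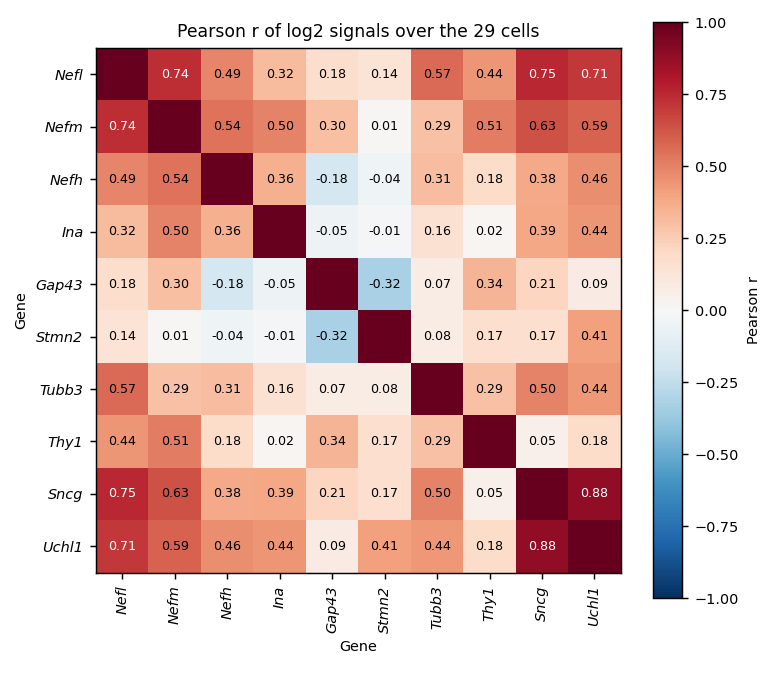
Pearson r of log2 MAS5 signals over the 29 cells for each pair of the 10 genes, on both axes in the order of their roles, from blue (-1) to red (1). High values join Nefl, Nefm, Sncg and Uchl1, and the row of Gap43 holds values from -0.32 to 0.34.

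The r of the 10 genes with the number of detected genes had a median of -0.011, and the median over all 7113 ranked genes was 0.20 (5% to 95%, -0.18 to 0.49). The members' median rested on 1 cell and on the scaling: it was 0.25 without EyeWire 6sw 21, 0.18 without this cell and SbC 26, and 0.27 after quantile normalization. *Thy1*, with 0.36, was the 1 member at 0.3 or more, a level reached by 29.8% of all ranked genes, and its value was 0.12 without SbC 26 and its rho -0.045. *Sncg* was the 1 member at -0.3 or less (r = -0.45, rho = -0.40), as were 1.86% of all ranked genes. It was at the 0.605 percentile, and its value was -0.28 without EyeWire 6sw 21 and 0.064 after quantile normalization, under which all cells had 2400 to 2935 detected genes.

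The remaining 8 genes lay between -0.24 (*Gap43*) and 0.21 (*Nefh* and *Stmn2*). *Nefl* went from -0.14 to 0.38 without EyeWire 6sw 21, the cell with the most detected genes and few of the members. With the log2 signal averaged over the rod genes, all 10 members had negative r, from -0.46 (*Thy1*) to -0.012 (*Gap43*). Their median was -0.38, against -0.060 over all ranked genes.

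**Figure D5:**
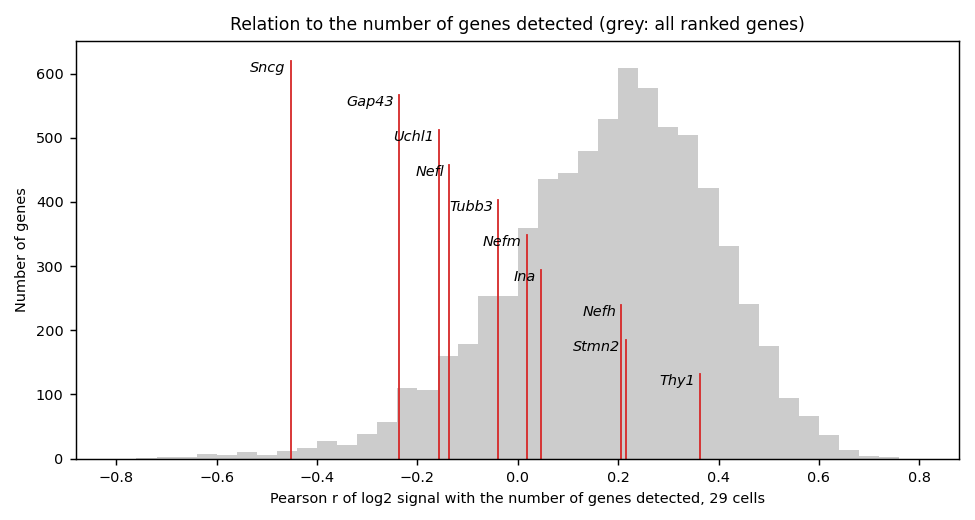
Distribution over all 7113 ranked genes (grey; y axis, number of genes) of the Pearson r of log2 MAS5 signal with the number of detected genes in the 29 cells (x axis), with red lines at the 10 members. The members spread from -0.45 (Sncg) to 0.36 (Thy1), and 7 of the 10 lie below 0.1, left of the median of all genes at 0.20.

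For each member the 3 genes of highest r over the 29 cells were named. *Nefl* and *Nefm* shared *Gng3*, a G protein gamma subunit of neurons (0.79 and 0.88), and *Nefl* was further joined by *Tubb2a* (0.78) and *Cplx1* (0.77), which had 0.497 and 0.43 without EyeWire 6sw 21, and *Nefm* by *Tppp3* (0.89) and *Vamp1* (0.85). *Nefh* went with *Gpr137* (0.82), with *Syt2*, a calcium sensor of fast transmitter release (0.70), and with *Scn8a*, the sodium channel Nav1.6 of axon initial segments (0.70). For *Ina* these were *Rnf208*, *Snap47* and *Maged1* (0.69 to 0.67), and for *Gap43* *Caly*, *Sema3e* and *Acaca* (0.59 to 0.57), the weakest set of the 10. In this set *Sema3e* encodes a secreted axon guidance cue.

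*Stmn2* went with *Tmed10* (0.75), *Ppme1* (0.74) and its relative *Stmn1* (0.68), and *Tubb3* with *Prepl* (0.82), *Ogdh* (0.73) and *Ap2m1* (0.68). *Stmn1* had 0.39 without OFF S alpha 16 and *Ap2m1* 0.35 without ON DS 2. *Thy1* had the highest values, 0.92 each with *Slc6a17*, *Atp6v0a1* and *Hspa12a*. All 3 were detected in the same 27 cells as *Thy1*. *Sncg* was joined by the glycolytic enzyme gene *Tpi1* (0.89), *Uchl1* (0.88) and *Cplx1* (0.83), and *Uchl1* by *Sult4a1* (0.90), *Sncg* (0.88) and *Stmn3* (0.84). Several of these values were much lower without the 2 cells farthest from the member's own median signal, which differed between members. Without OFF S alpha 16 and OFF high speed selective 23, *Stmn1* had 0.10 and *Ppme1* 0.32 with *Stmn2*. Without ON DS 2 and EyeWire 6sw 21, *Ap2m1* had 0.11 and *Prepl* 0.22 with *Tubb3*. *Maged1* had 0.30 with *Ina* without ON vOS 9 and SbC 25. *Atp6v0a1* had 0.48 with *Thy1* without OFF S alpha 18 and SbC 26. *Cplx1* had 0.36 with *Sncg* without EyeWire 6sw 21 and ON S non-alpha 28. The genes named for *Nefh* had 0.655 or more without ON DS 2 and ON DS 3. Those for *Gap43* had 0.53 or more without ON hOS 10 and ON alpha 12. For *Nefh* and *Gap43* other cells tied with these at the floor, and the first by cell number were left out.

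Of a wider list of 46 genes of the axonal cytoskeleton and axonal transport, 44 had a value and 41 were ranked. *Tubb2a*, *Tubb5*, the dynein heavy chain *Dync1h1* and the spectrin *Sptan1* were detected in all 29 cells, and *Stmn1*, *Stmn3*, *Tuba1a* and *Tubb4a* in 28. Between alpha and DS cells 4 were called higher and 4 lower, with a median difference of 0, as over all genes, of which 18.9% and 15.2% were called. The higher ones were *Vim* (3.75), the kinase *Gsk3b* (2.42), *Crmp1* (1.23) and the kinesin *Kif1a* (1.04), of which *Vim*, an intermediate filament gene also expressed by Müller glia, was detected in 5 of 9 alpha and 2 of 8 DS cells. The lower ones were *Cdk5r1* (-2.32), *Marcks* (-1.80) and the adhesion molecules *Nfasc* (-1.68) and *Nrcam* (-1.35). For OFF T against OFF S alpha cells 20 were called higher and 4 lower, with a median of 0.90 against 0 over all ranked genes, of which 34.4% and 15.9% were called. For ON-OFF DS against ON DS cells 14 of the 41 were higher and 7 lower, near the 33.8% and 15.3% of all ranked genes.

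Of 10 further pan-RGC genes, 9 had a value and 8 were ranked, and between alpha and DS cells 0 were called higher and 1 lower. This was *Rbpms*, which encodes an RNA-binding protein of RGCs, detected in 7 of 8 DS and 2 of 9 alpha cells (-1.45). *Slc17a6* was detected in 8 of 9 alpha and 7 of 8 DS cells (-0.68), and *Nrn1*, the gene of neuritin, in 5 of 9 and 5 of 8, with a difference just below the limit for a call. *Pou4f1* and *Ebf3*, both transcription factors, had -0.54 and 0.92, and *Isl1* had -0.70. *Elavl4* and *Rbfox3* were detected in 5 cells each. In ON-OFF DS against ON DS cells *Pou4f1* (6.11), *Ebf3* (6.19) and *Nrn1* (4.95) were called higher and 0 were lower, and in OFF T against OFF S alpha cells 3 were higher and 1 lower. With 8 ranked genes, 3 called higher is near the share of all ranked genes in both comparisons (33.8% and 34.4%).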

How the data were processed

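The authors computed the deposited intensity values, which are linear signals of 29 Affymetrix mouse genome arrays, with the MAS5 algorithm. Its version and settings are not stated in the paper or the labels. The 2% trimmed mean was 1500 on every array. Probe sets were named from the platform annotation with updated symbols: 34958 had 1 gene, 932 several and 9211 none, and the latter 2 kinds were left out. A gene was read at its probe set of highest mean log2 signal, and other probe sets are given beside it.

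The detection threshold was 3000, the floor 375. Genes were ranked among the 7113 detected in at least 3 cells. Shares have exact Clopper-Pearson intervals at 95%. No test or standard error was made between cells, because the sources used here name no animals. Pearson r was taken on floored log2 signals of the 29 cells, and Spearman rho beside it. Named by rule were the 10 members, the 3 genes of highest r for each, from the axonal list the 5 genes detected in most cells and the 3 of largest difference in each direction, all pan-RGC genes, and 2 genes of each list of other cell types. *Kif1a*, *Nrcam*, the axonal genes tied in 28 cells and the defining genes at 0 cells were named after their values were seen. The members and lists were chosen with earlier results of these data known. The scripts were tested on simulated data.

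Alternatives were thresholds of 1500 and 6000, no floor or a floor of 1500, quantile normalization, the mean of all probe sets or any probe set, differences of means, Spearman and partial correlation, correlation within classes, and leaving out cells. Promoters came from RefSeq (GRCm38.p6) for 4 of the 10 genes. The software was pandas 2.3.3, scipy 1.17.1 and numpy 2.4.6 under Python 3.11.15, with matplotlib 3.10.9 for plots.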

Additional observations from a re-analysis of the deposited data

Results flagged for a closer look

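Single cells that stood apart were sought in the ON DS, ON-OFF DS and OFF S alpha subtypes and in the DS and alpha classes, of 4 to 9 cells. The 10 cells of other subtypes were not searched as a group. In 7 of 50 combinations of gene and group 1 cell stood apart, by its gap to the nearest cell as a share of the whole range. Chance gives about 1 in 20 for separate groups, but here the subtypes lie within the classes, and the 7 combinations came from 4 cells, 3 of which were counted in both their subtype and their class. *Tubb3* was lowest in ON DS 2, with a gap of 0.895 of the range among ON DS cells and 0.727 among all DS cells. *Stmn2* was lowest in ON-OFF DS 7, with 0.849 among ON-OFF DS cells and 0.656 among DS cells, and the second probe set was lowest in the same cell among ON-OFF DS cells (20914). *Thy1* was lowest in OFF S alpha 18, with 0.972 among OFF S alpha cells and 0.807 among alpha cells. *Nefl* was highest in OFF S alpha 16, with 0.872 among OFF S alpha cells. These cells were kept in the report except where a value is given without them.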

How the results depend on the processing

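The *Nefh* and *Gap43* differences between alpha and DS cells kept their direction and a size above 1 under every alternative run: *Nefh* between 3.67 and 5.74, or 2.12 and 5.74 when 1 cell was left out, and *Gap43* between -5.94 and -3.04, or -5.05 and -3.88 when 1 cell was left out. With differences of means 1 gene was called higher and 2 lower. For ON-OFF DS against ON DS cells, 2 genes were called higher with no floor, with means and after leaving out the 18 cells that had 5 or more rod genes, and 0 when probe sets were averaged. The number lower was 3 without these rod cells and 1 with quantile normalization or means. For OFF T against OFF S alpha cells 0 genes were lower with the floor of 1500, and without the rod cells no OFF S alpha cell was left, so that comparison has no value there. When 1 cell was left out, the numbers called higher and lower were 1 to 2 and 1 to 1 for alpha against DS, 0 to 2 and 1 to 7 for ON-OFF DS against ON DS (7 without ON DS 3), and 1 to 4 and 0 to 2 for OFF T against OFF S alpha cells. *Gap43* in the last comparison ran from -3.25 to 0.30, and was positive without OFF T alpha 19 or OFF T alpha 20. The shares of all ranked genes called were not computed with 1 cell left out.

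The median r of the members with the number of detected genes was 0.050 at the threshold of 6000. It was 0.27 after quantile normalization and -0.26 without the rod cells. It was -0.082 without SbC 26, which had under 50% of the median number of genes. Without SbC 26 and EyeWire 6sw 21, the 2 cells farthest from that median, it was 0.18. Leaving out 1 cell gave -0.082 to 0.25, the latter without EyeWire 6sw 21. For *Sncg* the sign turned after quantile normalization (0.064), and for *Thy1* with Spearman rho (-0.045) and without the rod cells (-0.50). The median r over pairs was 0.38 after quantile normalization, 0.17 without the rod cells, 0.069 within the classes and 0.155 to 0.340 when 1 cell was left out. Pairs with r of at least 0.5 numbered 16 after quantile normalization, 14 as partial correlations and 6 to 12 when 1 cell was left out. They numbered 15 when each pair was read without the 2 cells farthest from the median signal of its first gene. Those cells differed between pairs. *Nefm* and *Thy1* turned to -0.030 within the classes. The cause of these shifts was not tested. The median number of members per cell was 9 throughout. No paired analysis was possible because each cell had its own array and the numbers of the cells do not pair them across subtypes.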
